A study of Mus musculus with 2 samples.

Results

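The cells described here are 84 of the 48143 cells kept from denervated hind limb muscle, 61 from the IgG library and 23 from the SPP1-nAb library. Each had unique molecular identifiers (UMIs) of at least 3 of *Tenm2*, *A2m*, *Unc13c*, *Cldn1*, *Foxd1* and *Gpc3*, of which at least 1 was *Cldn1* or *Foxd1*, and no UMI of the Schwann cell (SC) gene *Sox10*, the macrophage gene *Csf1r*, the endothelial gene *Pecam1* or the tendon gene *Tnmd*. They are called the *Cldn1*/*Foxd1* cells below and "rule cells" in the plots. Cells were kept when over 200 genes were detected and mitochondrial UMIs stayed under 10%.

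The 2 libraries came from male mice of 10 to 16 weeks, labeled C57BL/6J, with peroneal nerve injury on both sides. Mice received 2 μg of goat anti-mouse IgG, or the same mass of an SPP1-neutralizing antibody (SPP1-nAb), in 10 μL into the tibialis anterior muscle every 2 days, and muscle was taken at 7 days post injury. The study asked how muscle-resident cells respond when secreted phosphoprotein 1 (SPP1, osteopontin) is neutralized after nerve injury. The titles name an S100GFP-positive fraction of skeletal muscle. The protocol describes sorting of viable cells with and without GFP from tibialis anterior and gastrocnemius, whereas the study names tibialis anterior muscles for this experiment. The study's methods name pooled males and, for the antibody experiments, *S100GFP*-tg mice, whose reporter is driven by the S100B promoter. The labels and the methods thus differ on the mice, which was not resolved. Which sorted fraction was loaded, and how many mice were pooled, is not given in the sources used here.

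The IgG library held 97607674 UMIs on 23779 barcodes and the SPP1-nAb library 127719916 UMIs on 25069 barcodes. Filtering kept 23385 IgG cells, at a median depth of 3822 UMIs, and 24758 SPP1-nAb cells, at 4756. The libraries shared 163 barcode sequences, 0.685% and 0.650% of their barcodes, and none of these was a *Cldn1*/*Foxd1* cell. Each condition had 1 library, so there was no replicate check and no test was run. Levels are UMIs summed over the cells of a group and scaled to CPM, the usual scaling of a gene's UMIs to the total of its group, and every 95% interval below (Poisson for levels, Clopper-Pearson for shares, binomial for ratios) covers counting error only. The antibody and the library cannot be told apart in any difference between the conditions.

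A peripheral nerve is wrapped in layers. The epineurium is a loose collagen coat, the perineurium beneath it is a sleeve of flat cells joined by tight junctions that contain claudin-1, and the endoneurium inside holds fibroblasts among the SCs and axons. Perineurial cells lie on a basement membrane, carry the glucose transporter GLUT1 (*Slc2a1*) and, with endoneurial vessels, form the blood-nerve barrier, which is known to become leaky after nerve injury.

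The 6 genes of the rule chose the cells, so their values are a description. *Gpc3*, a cell-surface glypican, had a UMI in 61 of 61 IgG and 21 of 23 SPP1-nAb cells, and *Tenm2*, a teneurin adhesion receptor, in 56 and 23. *Cldn1*, the barrier claudin, was detected in 29 and 19 cells and *Foxd1*, a forkhead transcription factor, in 44 and 14. *Unc13c*, which encodes a vesicle priming protein, was seen in 27 and 4 cells, and *A2m*, a secreted protease inhibitor, in 19 and 0. Thus *A2m* and *Unc13c* admitted cells mainly in the IgG library. Over all kept cells, *A2m* had 166 UMIs in 89 IgG cells and 9 UMIs in 6 SPP1-nAb cells.

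Of the IgG cells, 17 had *Cldn1* without *Foxd1*, 32 had *Foxd1* without *Cldn1* and 12 had both, and the corresponding SPP1-nAb numbers were 9, 4 and 10. The cells held 53.3% of all *Foxd1* UMIs of the kept IgG cells and 53.6% of those of the SPP1-nAb cells, and 31.8% and 28.4% of the *Cldn1* UMIs. In the Genome Reference Consortium mouse build 39 (GRCm39), *Cldn1* (ENSMUSG00000022512) lies on the minus strand at chr16:26175392-26190596 and *Foxd1* (ENSMUSG00000078302) on the plus strand at chr13:98490750-98495813, both annotated as protein coding. Free RNA can put UMIs into any droplet. Detection of *Cldn1* and *Foxd1* was set by the rule, so genes outside it were compared with *Csf1r*+ phagocytes, after cells were thinned to 2000 UMIs. Shallower cells were left out of every group, which left 56 IgG and 21 SPP1-nAb *Cldn1*/*Foxd1* cells. *Itgb4*, an integrin gene, was then detected in 8.93% and 28.6% of the cells and in 0.0336% and 0.0589% of phagocytes. *Sfrp5*, a secreted Wnt antagonist gene, was detected in 14.3% and 23.8% against 0.0673% and 0.0421%, and *Apod*, the most abundant gene of the endoneurial list below, in all cells against 5.25% and 4.01%. The Schwann class, at the same depth, had *Itgb4* in 8.97% and 8.27% of cells, *Sfrp5* in 1.35% and 1.57% and *Apod* in 94.2% and 97.6%, and the *Smoc2 Cxcl14* class, introduced below, had *Apod* in 91.0% and 87.5%. Detection of *Apod* in both libraries and of *Itgb4* in IgG was thus shared with other classes. Before thinning, detection of *Itgb4* in the cells was 14.8% and 39.1%, and of *Sfrp5* 16.4% and 43.5%. Before thinning, the *Cldn1*/*Foxd1* cells had median depths of 4512 (IgG) and 6010 UMIs (SPP1-nAb), and the phagocytes 4188 and 5352.

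Cells just inside the rule, with exactly 3 of the 6 genes, numbered 22 and 14, and cells just outside it, with exactly 2 including *Cldn1* or *Foxd1*, numbered 34 and 7. In IgG, *Gpc3* was 2857 CPM inside and 537 CPM outside, *Tenm2* 1204 and 437 CPM, and *Cldn1* 286 and 354 CPM. In SPP1-nAb, *Gpc3* was 592 CPM inside and 177 CPM outside, *Tenm2* 1153 and 618 CPM, and *Cldn1* 410 and 375 CPM. The groups are defined by these genes, which sets such values. *Apod*, which the rule did not use, was 59083 CPM inside and 10508 CPM outside in IgG, but 18592 CPM inside and 27450 CPM outside in SPP1-nAb. *Sfrp5*, also not used, was 673 CPM inside and 382 CPM outside in IgG, and 804 and 132 CPM in SPP1-nAb. *Itgb4* was 133 and 99.7 CPM in IgG, and 304 and 66.2 CPM in SPP1-nAb. Of the *Cldn1*/*Foxd1* cells, those with exactly 3 genes held 66 of 87 (IgG) and 53 of 55 (SPP1-nAb) *Sfrp5* UMIs. For *Itgb4* they held 13 of 28 and 20 of 22 UMIs. A further 70 IgG cells but only 2 SPP1-nAb cells had 3 or more of the genes with neither *Cldn1* nor *Foxd1* (0.299%, 0.233 to 0.378, and 0.00808%, 0.000978 to 0.0292, of kept cells).

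The *Cldn1*/*Foxd1* cells made up 0.261% (0.200 to 0.335) of kept IgG cells but 0.0929% (0.0589 to 0.139) of kept SPP1-nAb cells. Fibroblast barcodes, with UMIs of 3 or more of *Col1a1*, *Col1a2*, *Col3a1*, *Dcn* and *Pdgfra* and none of *Sox10*, *Csf1r* or *Pecam1*, were themselves 13.6% of IgG and 5.85% of SPP1-nAb cells. Within them the shares were 59 of 3180 (1.86%, 1.42 to 2.39) and 23 of 1449 (1.59%, 1.01 to 2.37). The difference, SPP1-nAb minus IgG, was -0.268 percentage points with an interval from -1.05 to 0.632. So the cells were fewer among all cells of the SPP1-nAb library, while the interval for their share of fibroblasts included 0, which does not show the shares to be alike. With at least 4 of the 6 genes required, that share was 1.23% (39 cells) and 0.621% (9 cells), a difference of -0.605 points with an interval from -1.16 to 0.0521. At 2000 UMIs per cell the shares were 0.167% of 19110 and 0.0618% of 21043 cells, after 4275 and 3715 shallower cells were left out. Cell sorting and dissociation also set such shares, and their part was not tested.

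The label of the cells was checked against marker lists of the nerve sheath and of the other cell types that could be present. The cells were compared with 3 fibroblast classes defined by markers, a *Smoc2 Cxcl14* class (1252 IgG and 509 SPP1-nAb cells), a *Pi16 Dpp4* class (397 and 86) and a tenocyte class (661 and 353), and with a *Sox10*+ Schwann class (275 and 276). The perineurial list of 9 genes summed to 487 CPM (414 to 568) for the IgG cells and 687 CPM (562 to 832) for the SPP1-nAb cells. The means over the 3 other fibroblast classes were 36.2 and 39.8 CPM. With at least 4 of the 6 genes required the SPP1-nAb sum was much lower, as given under the processing. At least 2 of its genes were detected in 19 of 61 and 19 of 23 cells, while in the other fibroblast classes this share ranged from 0.756% to 3.49% and in the Schwann class was 6.18% and 7.61%. Pooled over each library's cells, the perineurial list stood above all 4 comparison classes, but in IgG this came from part of the cells. A cluster of 12 IgG cells described further on summed to 2476 CPM, whereas 32 of the 61 IgG cells summed to 98.1 CPM, above the other fibroblast classes and below the 168 CPM of the Schwann class.

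The endoneurial list, *Etv1*, *Osr2*, *Wif1*, *Sox9*, *Meox1* and *Apod*, summed to 70033 CPM (69134 to 70941) and 47592 CPM (46504 to 48698), against 6017 and 5418 CPM in the other fibroblasts. Nearly all of this was *Apod*, which encodes the lipid carrier apolipoprotein D, at 69201 and 46839 CPM. At least 2 genes of the list were found in 57 of 61 and 19 of 23 cells. The same held for 65.2% and 69.2% of the *Smoc2 Cxcl14* class, 60.5% and 55.2% of tenocytes and 23.2% and 34.9% of the *Pi16 Dpp4* class, so the list was common in the cells and was also detected in many other fibroblasts. The epineurial list summed to 381 and 550 CPM, against 9055 and 8086 CPM in the *Pi16 Dpp4* class, which genes of this list define. It was 1534 and 1130 CPM in the *Smoc2 Cxcl14* class and 772 and 525 CPM in the tenocyte class, so the SPP1-nAb cells were not below the tenocyte class. Cells with 2 or more perineurial genes and 2 or more endoneurial genes numbered 16 in IgG and 15 in SPP1-nAb, and cells with the endoneurial list alone numbered 27 and 2.

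Lists of other cell types were then measured. SC genes summed to 323 and 576 CPM, below the 4906 and 4498 CPM of the Schwann class but 7.43 and 24.3 times the 43.5 and 23.7 CPM of the other fibroblasts, with the cadherin gene *Cdh19* at 203 and 124 CPM. At least 2 SC genes were found in 17 of 61 and 9 of 23 cells, against at most 5.11% of any other fibroblast class, and *Sox10* was 0 by the rule. The part of SC RNA in the results was not tested. The phagocyte list summed to 200 and 543 CPM, led by *Lyz2* at 118 and 209 CPM, so it was higher in the SPP1-nAb cells, where 9 of 23 cells had 2 or more of its genes. Its part in the differences between libraries was not tested. Of the endothelial list, *Kdr*, *Cldn5*, *Vwf* and *Esam* were at 0 in both libraries, as was *Pecam1* by the rule, and the summed 48.4 and 52.4 CPM were mostly *Cdh5*, 7.18 and 7.11 times the level of the other fibroblasts. Of the tenocyte list, *Tnmd* was at 0 by the rule, *Scx*, *Fmod*, *Kera* and *Cilp2* were also at 0, and *Thbs4* alone made up 444 of 447 CPM in IgG and all of 360 CPM in SPP1-nAb. The mural list summed to 60.5 and 45.8 CPM, and the satellite cell list to 0 CPM and 6.54 CPM (1 UMI of *Pax7*). The reporter transcript *Gfp* was detected in 10.7% and 9.52% of thinned *Cldn1*/*Foxd1* cells, 27.6% and 34.7% of phagocytes and 47.5% and 44.9% of the Schwann class.

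**Figure D1:**
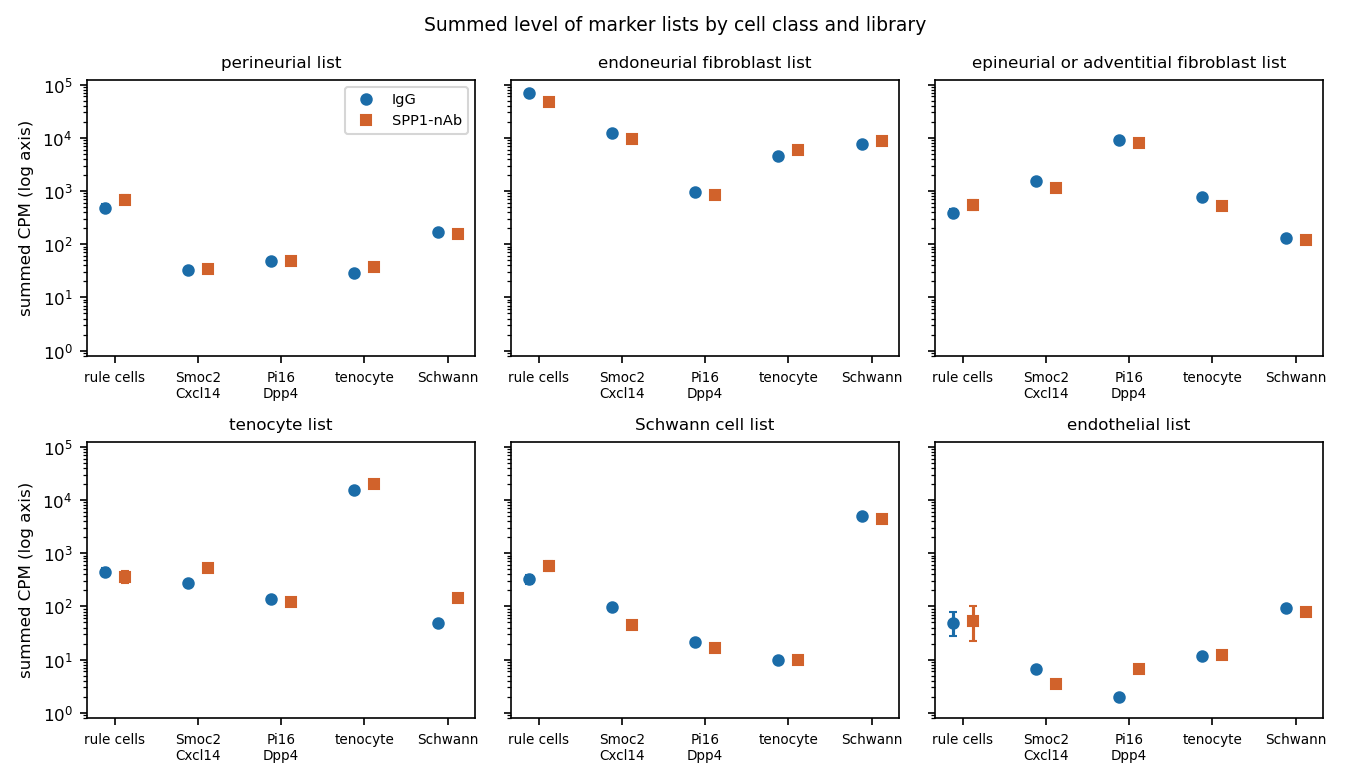
Summed CPM (log axis) of 6 marker lists in the *Cldn1*/*Foxd1* cells ("rule cells"), 3 other fibroblast classes and the Schwann class, with circles for IgG, squares for SPP1-nAb and bars on the rule cells for 95% counting intervals, mostly smaller than the symbols. The perineurial and endoneurial lists are highest in the rule cells, at 487 and 687 CPM and at 70033 and 47592 CPM, and the epineurial, tenocyte and Schwann lists peak in other classes.

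Against the mean of the 3 other fibroblast classes, which hold no *Cldn1* or *Foxd1* UMI by definition, 38 of 1448 genes with enough UMIs (2.62%) were 4 times or more higher in each library, 4 of them genes of the rule (*Tenm2*, *Cldn1*, *Foxd1* and *Gpc3*). In the other direction 53 of 1365 genes (3.88%) were 4 times or more lower, some of which, such as *Tnmd*, *Fmod*, *Kera* and *Pi16*, defined the comparison classes. Because the cells were picked by expression in these same data, these differences are descriptions. Over all genes the median log2 ratio was -0.07 in IgG and 0.07 in SPP1-nAb.

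A pair of integrin genes and an ephrin gene made up the perineurial genes of the higher group. *Itgb4* (ENSMUSG00000020758, chr11:115865333-115899239), the integrin chain that anchors cells to a basement membrane, was 84.7 CPM in IgG cells and 1.20 CPM in the other fibroblasts, and 144 and 0.485 CPM in SPP1-nAb. Its partner chain *Itga6* was 163 against 4.64 CPM and 216 against 4.66 CPM, in 16 cells of each library. *Efnb2*, the membrane ligand ephrin-B2, was 7.47 and 8.56 times higher. The other perineurial genes were too sparse for that count, and *Slc2a1* was 69.5 against 11.1 CPM and 118 against 14.8 CPM on 23 and 18 UMIs.

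Of 28 Wnt ligands and modulators 3 could be compared, of which *Sfrp5* was 4 times or more higher and *Sfrp2* lower. These are few genes to set beside the 2.62% and 3.88% of all genes. *Sfrp5* (chr19:42186410-42190691), a secreted Wnt antagonist, had 87 UMIs in 10 of 61 IgG cells, 263 CPM (211 to 324), and 1 UMI in 2310 other IgG fibroblasts. In SPP1-nAb it had 55 UMIs in 10 of 23 cells, 360 CPM (271 to 469), and 0 UMIs in 948 other fibroblasts, at least 709-fold higher than the level of 3 counts over those fibroblasts. Its relative *Sfrp2* had no UMI in the *Cldn1*/*Foxd1* cells, at least 18.3-fold lower than the 166 CPM of other IgG fibroblasts and at least 12.2-fold lower than the 239 CPM of other SPP1-nAb fibroblasts, again with 3 counts as the floor.

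Some collagens of the basement membrane zone were higher and some interstitial matrix genes were lower. *Col28a1*, a collagen known from peripheral nerve, was 248 against 10.7 CPM in IgG and 399 against 10.1 CPM in SPP1-nAb, in 19 and 11 cells. *Col15a1*, of the outer basement membrane zone, was 967 against 183 CPM and 661 against 71.4 CPM. Of the 23 basement membrane genes, 11 could be compared, of which *Col15a1* and *Col18a1* were 4 times or more higher and none lower. Of the 25 fibrillar and fibril-associated genes, 23 could be compared, none 4 times or more higher and 3 (*Col12a1*, *Col14a1* and *Fmod*) lower. Over all genes the shares were 2.62% higher and 3.88% lower. The mean gives each class equal weight, so a gene high in 1 class alone can count as lower. The tenocyte list, which holds *Fmod*, summed to 15218 and 19740 CPM in tenocytes and 447 and 360 CPM in the *Cldn1*/*Foxd1* cells. It was 276 and 528 CPM in the *Smoc2 Cxcl14* class and 137 and 122 CPM in the *Pi16 Dpp4* class. Low *Fmod* is thus set mainly against tenocytes. *Comp*, *Mmp3* and *Chad*, which encode a cartilage and tendon matrix protein, a matrix protease and a cartilage leucine-rich protein, had no UMI in either library, against 258, 156 and 432 CPM in the other IgG fibroblasts. *Prg4*, which encodes the joint lubricant lubricin, had 1 and 7 UMIs against 2246 and 3034 CPM.

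Of 49 transcription factors, 12 could be compared, and *Nr2f2*, *Foxp2* and *Klf5* were 4 times or more higher, beside 2.62% of all genes. *Nr2f2* (COUP-TFII) was 605 against 59.9 CPM in IgG and 707 against 50.5 CPM in SPP1-nAb and was found in 51 of 61 and 23 of 23 cells. *Foxp2* was 293 against 29.8 CPM and 321 against 23.3 CPM, and *Klf5*, a zinc finger factor of epithelia, 160 against 14.7 CPM and 249 against 23.6 CPM. *Etv1*, from the endoneurial list, was 4.30 and 6.43 times higher.

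Barrier genes were mostly too sparse to compare. Of 26 tight junction genes other than *Cldn1*, 3 could be compared, and *Cgnl1*, a junctional scaffold, was 142 against 21.6 CPM and 242 against 26.9 CPM. *Tjp1* (ZO-1) was 2.14 and 3.08 times higher. *Cpe*, which encodes a carboxypeptidase that trims neuropeptides, was 320 and 262 CPM (18.3 and 21.6 times higher), in 43 and 15 cells.

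Receptors and ligands gave a mixed picture. *Gfra1*, the GDNF coreceptor, was 275 and 151 CPM, 9.40 and 5.47 times higher than in the other fibroblasts. Of the 14 genes of the hedgehog list, which summed to 692 against 1055 CPM and 530 against 783 CPM, 1 could be compared, the coreceptor *Gas1*, at 48.4 against 663 CPM and 144 against 467 CPM. The receptor *Ptch1* was 384 against 20.7 CPM and 118 against 13.8 CPM, but its 18 SPP1-nAb UMIs were below the 20 needed for the count. The hedgehog ligands *Dhh*, *Ihh* and *Shh* had no UMI. *Tgfbi*, a secreted adhesion protein, was 662 against 120 CPM and 635 against 88.8 CPM, and *Reln* (reelin) was 9.65 and 9.86 times higher on 42 and 15 UMIs.

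The remaining lists had few genes that could be compared, and their counts are to be read against the 2.62% and 3.88% of all genes. In the fibro-adipogenic progenitor list, which summed to 3038 and 2120 CPM, 1 of 4 genes compared (*Ly6a*) was 4 times or more lower and *Gdf10* had no UMI. Its most abundant gene in the cells was *Smoc2*, at 2056 and 910 CPM. The list summed to 9666 and 8906 CPM in the *Smoc2 Cxcl14* class and 2842 and 3197 CPM in the *Pi16 Dpp4* class. At least 2 of its genes were found in 39 of 61 and 12 of 23 cells. In the clusters of 32, 27 and 25 cells described further on, 25, 22 and 4 cells had 2 or more. Among 20 protease and inhibitor genes compared, *Mmp3* and *Adamts5* were lower, and among 15 chemokine, cytokine and complement genes *Cxcl13*, *C3* and *C4b* were lower. No gene passed in either direction among 3 glypicans and syndecans, 2 teneurin and release genes, 3 neurotrophic and glial ligands, 8 dissociation response genes or 7 pan-fibroblast genes compared. Of 5 axon guidance genes, *Slit3* was lower and *Efnb2* higher.

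*Spp1* itself (chr5:104582165-104589235), the ligand that the antibody binds, measured 529 CPM (454 to 614) and 694 CPM (568 to 839) in the IgG and SPP1-nAb cells, against 40.8 and 72.7 CPM in the other fibroblasts. At 2000 UMIs per cell it was detected in 32.1% and 42.9% of the cells, in 5.45% and 7.48% of the *Smoc2 Cxcl14* class, and in 18.1% and 28.9% of phagocytes, a known source of SPP1. Detection lay above that in the *Smoc2 Cxcl14* class in both libraries, and the part of free or phagocyte RNA was not tested. Of the SPP1 receptor genes compared, *Cd44*, *Itgav*, *Itgb1* and *Itga5* were 0.469 to 2.34 times the level of the other fibroblasts.

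**Figure D2:**
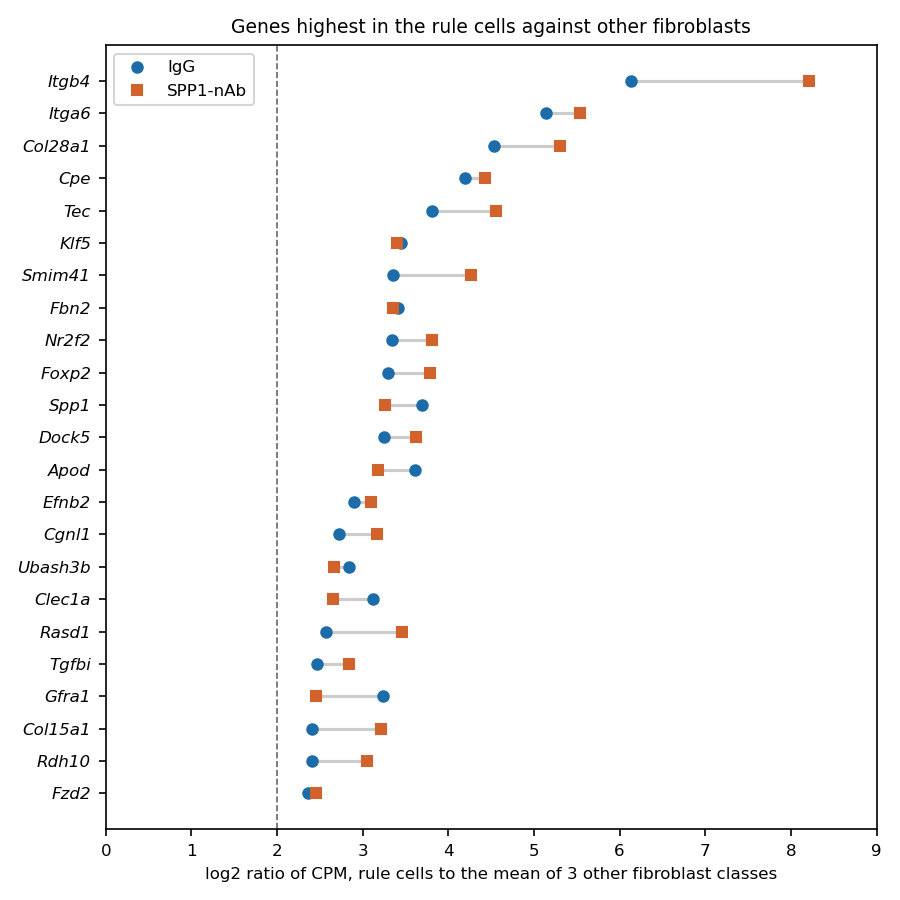
The log2 ratio of CPM in the *Cldn1*/*Foxd1* cells to the mean of 3 other fibroblast classes, for 23 genes among the 25 with the largest ratios, with circles for IgG, squares for SPP1-nAb and a dashed line at 4 times; *Sfrp5*, with no UMI in the other SPP1-nAb fibroblasts, and 1 further gene are not drawn. *Itgb4* lies at 6.14 and 8.21, *Itga6* at 5.14 and 5.53, and most other genes between 2 and 5 in both libraries.

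Clustered with all cells of their library, without the rule genes, 59 of the 61 IgG cells fell into 1 cluster of 237 cells, led by *Tenm2*, *A2m*, *Unc13c* and *Gpc3* among others. They were 24.9% of it, and at each resolution it also held 69 cells (5.51%) of the *Smoc2 Cxcl14* class. The 23 SPP1-nAb cells were not set apart at resolution 1, where they made up 2.00% of a broad fibroblast cluster of 1150 cells that also held 92.7% of the *Smoc2 Cxcl14* class and 87.2% of the *Pi16 Dpp4* class. At resolution 2, 22 of them lay in a cluster of 61 cells, led by *Tenm2*, *Sfrp5*, *Cldn1* and *Foxd1*. By genes that the rule did not use, 59 of the IgG cells thus lay together, with other fibroblasts, at all 3 resolutions tried. The SPP1-nAb cells lay apart from most other fibroblasts at resolution 2 alone.

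Clustered alone, without the rule genes, the 84 cells gave 2 clusters at resolution 0.5, of 52 cells (29 IgG and 23 SPP1-nAb) and of 32 cells, all IgG. At resolution 1 the 32 cells stayed together and the 52 split into 27 cells (17 IgG and 10 SPP1-nAb) and 25 cells (12 IgG and 13 SPP1-nAb). The clusters were formed on the genes used to describe them, so their genes carry no test, and a cluster of 1 library may be that library rather than a cell type.

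The 25-cell cluster was perineurial-like. Its perineurial list summed to 1923 CPM, and 23 of 25 cells had 2 or more of the list's genes. *Itga6* was found in 22 cells (619 CPM), *Itgb4* in 16 (530 CPM) and *Slc2a1* in 15 (365 CPM), and *Msln*, *Lypd2* and *Krt19* in 5 each. *Sfrp5* was found in 20 cells (1569 CPM) and had no UMI in the other 59 cells. *Cldn1*, on which the rule chose the cells, was found in 23 cells (652 CPM). *Tjp1* and *Cgnl1* were found in 20 cells each, and *Abcb1a*, the P-glycoprotein drug exporter of barriers, in 13 (210 CPM). *Klf5* was found in 23 (685 CPM), *Nr2f2* in all 25 (1326 CPM), and *Nbl1*, a secreted BMP antagonist, in 21 (1215 CPM). Claudin-5, the claudin of vessels, had no UMI, whereas *Cdh5*, an endothelial cadherin gene, was found in 13 cells (210 CPM).

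Other values also differed in this cluster. The SC list summed to 884 CPM, 297 CPM in its 12 IgG cells and 1357 CPM in its 13 SPP1-nAb cells. It was 224 CPM in the 27-cell cluster and 414 CPM in the IgG-only cluster. Detection per cell went the other way. At least 2 SC genes were found in 5 of the 25 cells, against 9 of 27 and 12 of 32 in those clusters. The median mitochondrial share was 3.26% of UMIs, 4.14% in the IgG cells and 2.79% in the SPP1-nAb cells, against 1.75% and 2.25% in the other clusters. The part of either in the cluster's genes was not tested, and *Itgb4* was also detected in the Schwann class.

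Fibroblast genes were lower in the perineurial-like cells than in the other *Cldn1*/*Foxd1* cells. The pan-fibroblast list summed to 15502 CPM, against 27352 CPM in the 27-cell cluster and 66575 CPM in the IgG-only cluster. *Pdgfra* was found in 2 of 25 cells and *A2m* and *Thy1* in none. The endoneurial list, mostly *Apod*, was 18044 CPM against 71113 and 77083 CPM. These cells were also the shallowest (median depth 3425 UMIs), and a single SPP1-nAb cell of 1823 UMIs lay far from the rest on the first principal components.

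The perineurial-like cells were 0.0513% (0.0265 to 0.0896) of kept IgG cells and 0.0525% (0.0280 to 0.0898) of kept SPP1-nAb cells. *Itgb4* was 669 CPM (441 to 973) in the 12 IgG cells and 419 CPM (259 to 641) in the 13 SPP1-nAb cells, *Slc2a1* 446 CPM (264 to 704) and 299 CPM (168 to 494), and *Cldn1* 792 CPM (542 to 1119) and 539 CPM (355 to 784). These intervals overlapped for each of the 3 genes. *Ptch1* was found in 11 of 12 IgG cells, 1139 CPM (834 to 1519), and 3 of 13 SPP1-nAb cells, 219 CPM (110 to 393), so its intervals did not overlap.

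The 27-cell cluster is called here by *Cxcl14*, a chemokine gene that ranked first by fold, and *Cthrc1*, which encodes a secreted collagen triple helix repeat protein and ranked 15. *Alk*, *Hmcn1* and the adventitial marker *Pi16* (7 cells, 43.9 CPM) also ranked before *Cthrc1*. *Cxcl14* was found in 18 cells (1202 CPM) and *Cthrc1* in 21 (507 CPM). All 27 cells had 2 or more endoneurial genes, and *Wif1*, a secreted Wnt inhibitor of that list, was found in 15 of them but in 1 cell of the IgG-only cluster and 2 of the perineurial-like cluster. *Col28a1* was found in 23 (519 CPM), and *Thy1* in 19 (527 CPM). Perineurial genes were intermediate, with 311 CPM and 2 or more genes in 14 cells. These cells were the deepest, with a median of 9246 UMIs, and made up 0.0727% (0.0424 to 0.116) of kept cells in IgG but 0.0404% (0.0194 to 0.0743) in SPP1-nAb.

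The 32-cell IgG-only cluster was led by *Caln1*, *Stard4*, *Cyp26b1* and *Chrm3*, and it is called in the plots by *Angptl7* and *Crispld2*, its more abundant genes of rank 7 and 8. *Crispld2*, which encodes a secreted protein, was found in 30 cells (1115 CPM), *Angptl7*, an angiopoietin-like secreted protein, in 15 (1661 CPM) and *Cyp26b1*, which breaks down retinoic acid, in 18 (336 CPM). Its 25 leading genes also held *Idi1*, an isoprenoid synthesis gene, in 17 cells (365 CPM) and *Insig1*, a sterol sensor gene, in 18 (273 CPM). The chemokine gene *Ccl2* was 3736 CPM and *Ccl7* 1767 CPM, and *Egr1*, an immediate early gene, 7893 CPM. The dissociation response list, to which *Egr1* belongs, summed to 18437 CPM, against 10204 CPM in the *Cxcl14 Cthrc1* cluster and 9072 CPM in the perineurial-like one.

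Perineurial genes were rare in that cluster, while 19 of its 32 cells had 2 or more tight junction genes (547 CPM in sum) and 21 had 2 or more transport genes (820 CPM). *Slc2a1*, *Itgb4*, *Itga6*, *Sfrp5* and *Abcb1a* had no UMI, and *Cldn1* was found in 4 cells, so 29 of the 32 entered the rule with *Foxd1*. At least 2 perineurial genes were found in 1 of 32 cells and at least 2 endoneurial genes in 31. On these markers "nerve sheath" matches the markers of the perineurial-like cells, and for the IgG-only cluster it rests on *Apod*, *Etv1*, *Sox9* and *Osr2*, which other fibroblasts also carried. The cluster was 0.137% (0.0936 to 0.193) of kept IgG cells and 0 of 24758 SPP1-nAb cells, with a Clopper-Pearson upper bound of 0.0149%. By the limit of 3 counts over the total, a count of 0 allows a share of up to 0.0121%. By count the libraries differed most in this cluster (32 and 0 cells), while the intervals of the perineurial-like shares overlapped. Because the cluster was formed on genes that also differed between the libraries, this does not place the deficit in a cell type. The deficit was among all kept cells, and the interval for the difference in share of fibroblasts included 0.

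**Figure D3:**
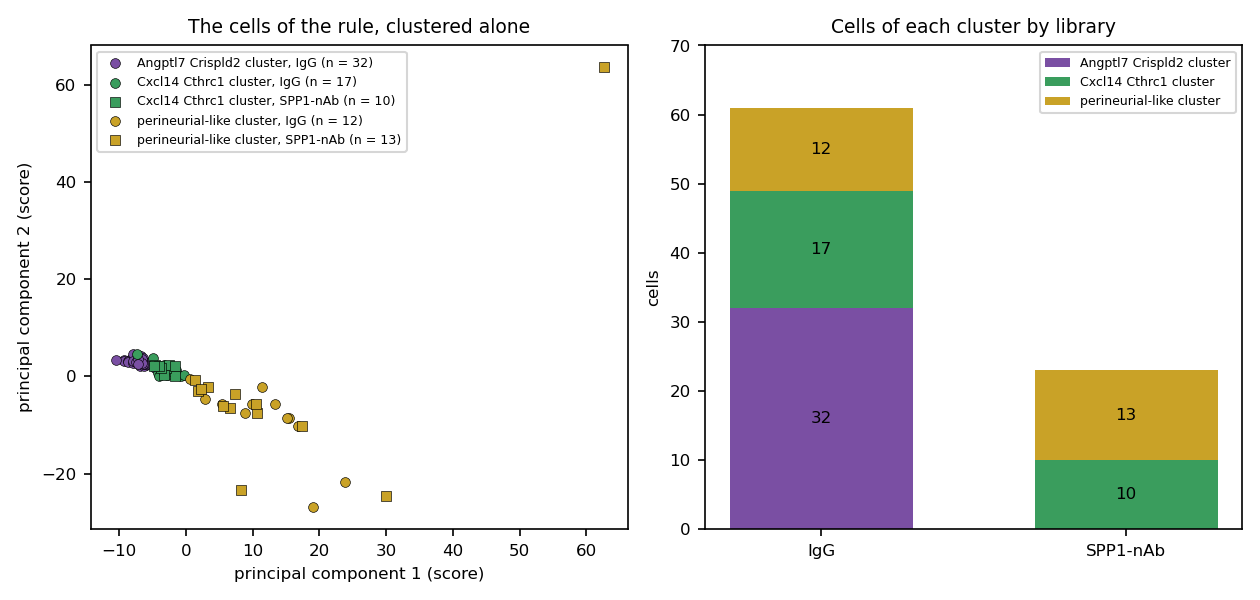
Left, the 84 *Cldn1*/*Foxd1* cells on the first 2 principal components (scores), colored by cluster, with circles for IgG and squares for SPP1-nAb. Right, the number of cells of each cluster by library, with 32, 17 and 12 in IgG and 0, 10 and 13 in SPP1-nAb.

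**Figure D4:**
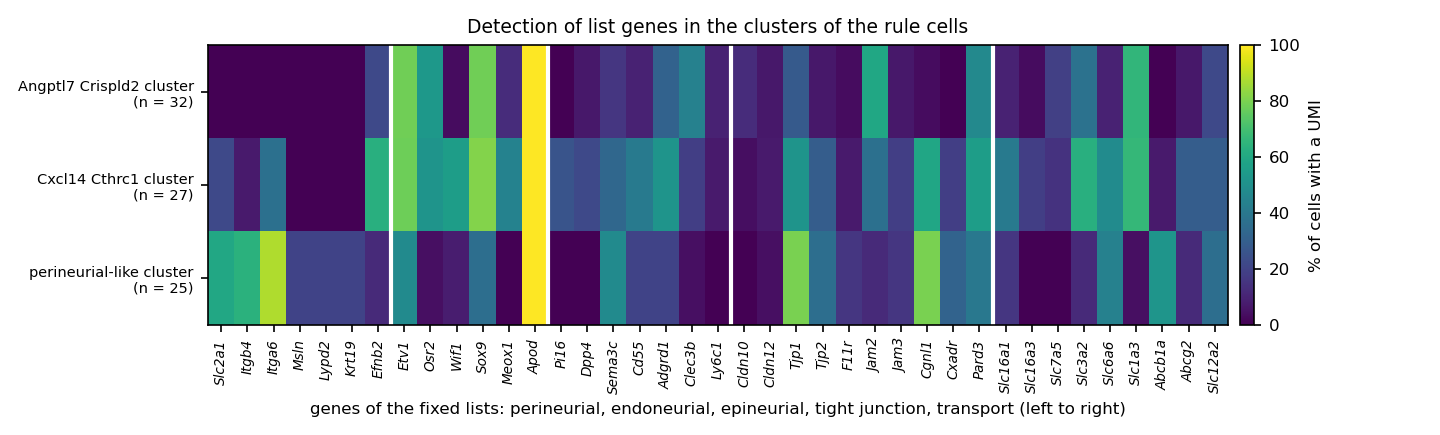
Percent of cells with a UMI (color) of genes from the perineurial, endoneurial, epineurial, tight junction and transport lists, set apart by white lines, in the 3 clusters. *Itga6*, *Itgb4*, *Slc2a1*, *Tjp1*, *Cgnl1* and *Abcb1a* are detected most in the perineurial-like cluster, *Wif1* in the *Cxcl14 Cthrc1* cluster and *Apod* in every cell, at depths that differ between the clusters.

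Between the libraries, 77 of 1761 genes (4.37%) were 2 times or more higher in the SPP1-nAb cells and 99 (5.62%) 2 times or more lower. The median log2 ratio was 0.09. In the *Smoc2 Cxcl14* class, 193 (1.85%) and 356 (3.41%) of 10440 genes passed that size, and of 1755 genes shared with the first comparison 16 (0.912%) and 31 (1.77%) did, on far more cells. Of the 77 higher genes 5 passed it in the same direction in that class, and of the 99 lower genes 18. Because the IgG-only cluster supplied 32 of the 61 IgG cells, the values of the genes named are also given without it, a choice made after seeing the data. Without it, 52 of 1248 genes (4.17%) were higher and 25 (2.00%) lower. Of the 77 higher genes, 62 could still be compared and 30 kept the size, and of the 99 lower genes, 49 could be compared and 18 kept it. The cluster held only IgG cells and was formed on genes such as *Angptl7*, *Crispld2* and *Ccl7*, so a smaller difference in its leading genes without it follows from how it was made and is given as a description only.

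The 8 named higher genes were *Inhba*, *Pde7b*, *Ccl6*, *Csmd1*, *Pde10a*, *Nbl1*, *Adamts9* and *Tenm3*. *Inhba* (chr13:16186373-16206206), the activin A subunit, was 96.7 CPM in 19 of 61 IgG cells and 759 CPM in 12 of 23 SPP1-nAb cells. The log2 ratio was 2.97 (2.40 to 3.58). It was 2.25 without the IgG-only cluster and 0.35 in the *Smoc2 Cxcl14* class. Within the *Cxcl14 Cthrc1* cluster *Inhba* was found in 11 of 17 IgG cells, 135 CPM (82.7 to 209), and 9 of 10 SPP1-nAb cells, 1062 CPM (872 to 1281). The phosphodiesterase gene *Pde7b* went from 112 to 694 CPM, a log2 ratio of 2.63 (2.71 without the cluster), and *Pde10a* from 66.5 to 327 CPM, 2.30 (1.77 without it).

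*Nbl1* was detected in 20 IgG cells (200 CPM) and in 22 of 23 SPP1-nAb cells (746 CPM), with a log2 ratio of 1.90 (1.45 to 2.36), and of 1.16 without the IgG-only cluster. *Tenm3*, a teneurin, was 336 and 1041 CPM (1.63, and 1.19 without the cluster). *Adamts9*, a matrix protease, was 60.5 and 262 CPM (2.11 and 2.45), and *Csmd1*, a complement-binding membrane protein, 200 and 844 CPM (2.08 and 2.03) in only 10 and 8 cells. The chemokine gene *Ccl6* was 45.4 and 268 CPM, a log2 ratio of 2.56 (2.07 without the cluster), but 1 cell held 90.2% of its SPP1-nAb UMIs. Single cells also held 34.1% to 36.0% of the SPP1-nAb UMIs of *Inhba*, *Pde7b*, *Csmd1*, *Pde10a* and *Tenm3*, though not 1 and the same cell for all of them. The top cell of *Pde7b*, *Adamts9* and *Tenm3* was the same cell, of 12568 UMIs. With the top SPP1-nAb cell of each gene left out, a check added after seeing the data, *Inhba* was 2.44, *Pde7b* 2.12, *Nbl1* 1.74 and *Tenm3* 1.13 on the log2 scale, while *Ccl6* was -0.72, the opposite direction. In the *Smoc2 Cxcl14* class *Ccl6* was 1.30 and *Nbl1* 0.71, and the 5 genes other than these and *Inhba* ranged from -0.21 to 0.33.

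The 8 named lower genes were *Angptl7*, *Ptx3*, *Ccl7*, *Cyp26b1*, *Sgip1*, *Crispld2*, *Flnc* and *Grin2b*. *Angptl7* was 844 CPM in 24 of 61 IgG cells and 85.1 CPM in 5 of 23 SPP1-nAb cells. Its log2 ratio was -3.31 (-4.24 to -2.51), and -2.83 in the *Smoc2 Cxcl14* class. *Crispld2* was 547 and 98.2 CPM (-2.48), and -0.58 in that class. *Ccl7* was 886 and 131 CPM (-2.76) but 1.00 (0.91 to 1.10) in that class, the opposite direction. Without the IgG-only cluster these 3 were -1.39, -0.25 and -0.74. *Ptx3*, the acute phase protein pentraxin 3, had 68 UMIs in 18 IgG cells and 1 UMI in SPP1-nAb, which remained at a log2 ratio of -4.16 without the cluster and was 1.13 in the *Smoc2 Cxcl14* class. *Cyp26b1* had 52 UMIs in IgG and 1 in SPP1-nAb (-4.59), and -1.70 without the cluster with an interval from -7.32 to 1.64. *Sgip1*, *Flnc* and *Grin2b*, which encode an endocytic adaptor, filamin C and a glutamate receptor subunit, had 55, 54 and 48 UMIs in IgG and 2 each in SPP1-nAb. Their log2 ratios were -3.67, -3.64 and -3.47, and without the cluster -2.29, -2.95 and -2.87. In the *Smoc2 Cxcl14* class they were -0.62, 0.62 and -3.76, and *Cyp26b1* was 0.24 with an interval from -0.01 to 0.49.

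By list, counts are given beside the 4.37% of all genes that were 2 times or more higher and the 5.62% that were 2 times or more lower. Of 7 pan-fibroblast genes compared, *Col1a1*, *Col1a2*, *Col3a1* and *Dcn* were 2 times or more lower and *Thy1* was higher (1.09, and 0.47 without the cluster). *Col1a1* was 4414 and 1355 CPM (-1.70, and -1.45 without the IgG-only cluster), while it was 0.43 in the *Smoc2 Cxcl14* class. *Col1a2* was -1.41 (-0.73 without the cluster), *Col3a1* -1.41 (-1.20) and *Dcn* -1.30 (-0.43). Of 9 chemokine and cytokine genes compared, 6 were 2 times or more lower (*Ccl2*, *Ccl7*, *Ccl11*, *Cxcl1*, *Cxcl2* and *Il6*), and without the cluster *Ccl2* was 0.82, *Cxcl1* 0.46 and *Cxcl2* 0.46, the opposite direction, while *Ccl11* was -0.81 and *Il6* -1.53. *Egr1* was 4635 and 1427 CPM (-1.70, and -0.60 without the cluster). Among other lists, *Serpine2*, *Timp1* and *Adamts9* were higher and none lower of 16 protease and inhibitor genes. Of 12 transcription factors, *Prrx1* and *Sox4* were higher and none lower. Of 19 fibrillar and fibril-associated genes *Postn* was higher, and *Col8a1* and *Col11a1* were among the 6 lower. Of 4 fibro-adipogenic progenitor genes *Ly6a* was higher and *Smoc2* and *Lpl* lower, and of 5 endoneurial genes *Osr2* was lower.

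None of 3 perineurial, 11 basement membrane and 5 SPP1 or receptor genes compared was 2 times apart, numbers too small to set apart from the 4.37% and 5.62% of all genes. *Itgb4* was 0.77, *Itga6* 0.40 and *Spp1* 0.39 on the log2 scale, and without the cluster -0.05, -0.41 and 1.15. Of 10 TGF-beta and BMP genes, *Inhba*, *Ltbp1* and *Tgfbr2* were 2 times or more higher, at 2.97, 1.03 and 1.00, and without the cluster at 2.25, 0.66 and 0.65. *Ptch1* was lower at -1.70 and at -1.64 without the cluster, and -1.33 in the *Smoc2 Cxcl14* class.

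**Figure D5:**
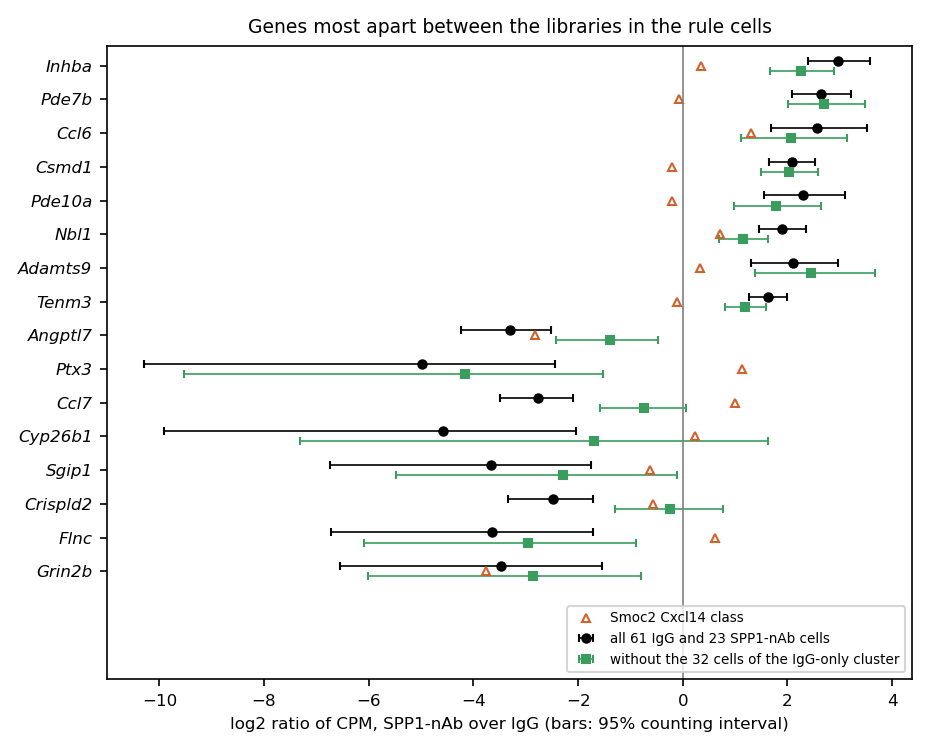
The log2 ratio of CPM, SPP1-nAb over IgG, for the 16 genes most apart between the libraries in the *Cldn1*/*Foxd1* cells, with black circles for all 84 cells, green squares without the 32 cells of the IgG-only cluster, open triangles for the *Smoc2 Cxcl14* class and bars for 95% counting intervals. The 8 higher genes stay above 0 without the cluster, from 1.16 to 2.71, and among the lower genes *Crispld2*, *Ccl7* and *Cyp26b1* come to intervals that include 0.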

How the data were processed

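The authors deposited UMI counts per gene and barcode of 2 droplet libraries, unnormalized and before ambient RNA or doublet removal. The labels name Cell Ranger 8.0.0 and the file headers 9.0.1, and the methods name both GRCm39 and GRCm38. Of 32287 features, 31674 matched GENCODE M39 (GRCm39), from which coordinates were taken.

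The members, gene lists and rules were chosen with earlier results of these data known. Counts were summed per group and given as CPM. Classes needed 3 markers each (*Smoc2* or *Cxcl14*, *Pi16* or *Dpp4*, *Tnmd* or *Scx* among them), none of *Sox10*, *Csf1r*, *Pecam1*, *Cldn1* or *Foxd1*, and membership of a single class. Schwann cells had *Sox10* and 2 or more other SC genes. Genes needed 20 UMIs (measured or expected) in the cells of each library against other fibroblasts, and 50 UMIs over both libraries between them. Named were the 25 highest and 10 lowest genes against other fibroblasts, found in 10% of cells, and the 8 per direction between libraries whose interval bound lay farthest from 1, besides list genes. Mitochondrial, ribosomal protein, hemoglobin, immunoglobulin and sex genes were left out. Clustering scaled cells to 10000, took 2000 variable genes, 30 principal components and 20 neighbors (15 and 15 for the cells alone) and the Leiden algorithm. Intervals of differences between shares combined both Clopper-Pearson intervals as the root of summed squares. Doublets were scored from 2 simulated doublets per barcode and were removed only as an alternative (2 cells of each library). Analyses used Python 3.11.15, numpy 2.4.6, scipy 1.17.1, pandas 2.3.3, scikit-learn 1.9.0 and leidenalg 0.10.2, and were tested on simulated data. Alternatives covered the rule, filters, depth, comparison class, scaling and resolution. Some items are not reported here.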

Additional observations from a re-analysis of the deposited data

How the results depend on the processing

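Each condition had 1 library, so no value could be checked against another, and no paired analysis was possible because the groups share no second replicate. Of the values that answer a comparison, 77 stayed within their limits under the alternatives and 32 moved, and of the values of single genes 464 stayed, 24 moved and 1 reversed. The cause of each move was not tested, except where fewer genes or cells entered by construction.

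With at least 4 of the 6 genes required, the shares of kept cells were 0.167% and 0.0364%, and of fibroblasts 1.23% and 0.621%. Against other fibroblasts 25 of 737 genes were then 4 times or more higher, beside 38 of 1448 with at least 3 genes required. Lower genes were 48 of 700, beside 53 of 1365. Of the 25 and 48 genes, 22 and 38 were shared. The perineurial list in SPP1-nAb was then 345 CPM, the endoneurial list 74278 and 69358 CPM, and the *Ccl6* log2 ratio -1.16. With at least 2 genes, the IgG shares were 0.406% and 2.86%, and the difference in kept cells -0.285 points. With cells thinned to 2000 UMIs and shallower ones left out, IgG *Cldn1*/*Foxd1* cells were 0.167% of the cells that remained. The shares of the remaining fibroblasts were 1.05% and 0.712%.

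Genes higher and lower than in other fibroblasts numbered 66 and 94 with 10 UMIs required and 12 and 29 with 50. The number of genes compared changes with the UMI minimum, here and between libraries below, so such counts are not to be read as shares. Higher genes numbered 23 against the *Smoc2 Cxcl14* class alone, 73 against the *Pi16 Dpp4* class and 91 (82 lower) against tenocytes. Between libraries, the mean over cells gave 116 higher genes, a minimum of 20 UMIs gave 329 higher and 315 lower, and 100 UMIs 27 and 42. Without the IgG-only cluster, an alternative added after seeing the data, 25 were lower (18 shared), so lower genes made up 32.5% of those 2 times apart in place of 56.2%. With doublets removed the endoneurial list was 73017 and 50433 CPM, and with less than 5% mitochondrial UMIs the IgG perineurial list was 379 CPM and the endoneurial list 71561 CPM.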

Other observations

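Proliferation genes were sparse in the *Cldn1*/*Foxd1* cells. The list summed to 63.5 CPM (39.3 to 97.1) for IgG cells and 39.3 CPM (14.4 to 85.5) for SPP1-nAb cells, against 94.9 and 126 CPM in the other fibroblasts. At least 2 of its genes were found in 2 of 61 and 1 of 23 cells, and *Ccnb1*, *Ccna2* and *Birc5* were at 0 in both libraries.

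*Cdkn2a*, which encodes the cell cycle inhibitors p16 and p19ARF, was found in 17 of the 32 cells of the IgG-only cluster (182 CPM, 119 to 267), in 6 of 27 cells of the *Cxcl14 Cthrc1* cluster (31.9 CPM, 13.8 to 63.0) and in 0 of 25 perineurial-like cells, at median depths of 4144.5, 9246 and 3425 UMIs. The 70 IgG cells with 3 or more rule genes and neither *Cldn1* nor *Foxd1* had *Cdkn2a* in 26 cells (185 CPM), so it was not particular to that cluster. It was named after its values were seen.

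*Igf1*, of the neurotrophic and glial ligand list, was 925 and 635 CPM, close to the 875 and 674 CPM of the other fibroblasts.

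Of the S100 and reporter list, 6 genes could be compared with the other fibroblasts and none was 4 times apart in both libraries. *S100b*, whose promoter drives the reporter, had 15 and 13 UMIs in the cells, 4.45 and 15.2 times the level of the other fibroblasts, too few UMIs for that count.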
